A study of Rattus norvegicus with 36 samples.

Results

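In the nucleus accumbens of 9 rats, 3 of 32402 listed genes were gained in a single saline-treated animal, Saline 2, whose library stood apart from all others. The members were selected on measured values. Counts were summed over the technical replicates of a rat and divided by the rat's total and scaled to a common library size, which gives the unit CPM. A gene was kept when it had at least 2 CPM in Saline 2 and at least 4 times the highest CPM found in any of the other 8 rats. Of 12323 genes at 2 CPM or more in Saline 2, 0.0243% met the rule. They were ENSRNOG00000005185, ENSRNOG00000017987 and ENSRNOG00000009564. Because the rule used every rat, the difference between Saline 2 and the others is described below without a test.

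The rats were Sprague-Dawley animals of 8 weeks that went through conditioned place preference, in which an animal comes to associate a compartment with a drug, followed by an extinction phase of 12 days per the series text. Saline rats received 4 injections of physiological serum, 15 days of withdrawal and a further serum injection. CPPE rats, also labelled dependent, received cocaine on the same schedule with a final dose of 5 mg/kg and expressed the preference. The nCPPE rats, also labelled non dependent, received the same cocaine treatment and did not express it. Each group held 3 rats, and the preference of every animal was measured for 18 min directly after its last injection. The labels give the tissue as nucleus accumbens, while the extraction protocol names both nucleus accumbens and caudate putamen.

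The nucleus accumbens is the ventral part of the striatum and is built mainly of GABAergic medium spiny neurons that receive dopamine from the midbrain and glutamate from cortex, hippocampus, amygdala and thalamus. It lies close to the septum, the olfactory tubercle, the bed nucleus of the stria terminalis and the lateral ventricle, which carries ependyma and choroid plexus. RNA of a dissected block therefore mixes neurons, glia, vessels and any neighbouring tissue taken with it. In such bulk samples, fewer cells of a type and less RNA per cell cannot be told apart.

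The deposited identifiers carry no gene names, and the RefSeq table used here (GRCr8) matched 0 of them to a symbol. The cell type or tissue that these genes mark was therefore not analysed here, and the labelled tissue was not checked against its markers. The genes are described by identifier and by how they behaved in the libraries. For the same reason no promoter or protein could be assigned to them, and none is shown.

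Totals were 27724289 to 39067715 counts per rat, and that of Saline 2, 29142265, lay inside this range. Saline 2 had 18351 genes with at least 1 count, and the other rats 19023 to 19319. The part of this lower number in the gains described below was not tested. The labels give no batch or sequencing date.

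ENSRNOG00000005185 was the most abundant of the 3. It had 1368 counts in Saline 2, or 46.9 CPM. Its CPM was 7.36 in Saline 1 and 2.13 in Saline 3. The CPPE rats had 2.76, 9.75 and 3.64 CPM, and the nCPPE rats 2.70, 1.73 and 4.85 CPM. Saline 2 was thus far above every other rat, while the remaining animals overlapped whatever their group. The highest of them, CPPE 2, had 381 counts, which placed Saline 2 at 4.81 times its level (exact 95% interval of the ratio 4.29 to 5.41, counting error only). Against the median of the other 8 rats, 3.20 CPM, the ratio was 14.7. The gene stood at rank 4339 by CPM in Saline 2 and between ranks 9844 and 12944 in the other rats.

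ENSRNOG00000017987 was barely detected outside Saline 2. It had 85 counts in Saline 2, or 2.92 CPM, and 12 counts in the other 8 rats together. Saline 1 had 5 of these and Saline 3 had 3. CPPE 1, CPPE 2, nCPPE 2 and nCPPE 3 had 1 count each. CPPE 3 and nCPPE 1 had 0, which allows up to 0.101 and 0.0890 CPM, taking 3 counts as the limit. Every rat other than Saline 2 therefore lay near the limit of detection. Saline 2 stood at 16.9 times Saline 1, the next highest rat, with a wide exact 95% interval of 6.96 to 53.3. This was the largest ratio among the 3 genes.

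ENSRNOG00000009564 was low in all animals. It had 74 counts, or 2.54 CPM, in Saline 2, and 3 counts in each of Saline 1 and Saline 3. The CPPE rats had 7, 17 and 4 counts, and the nCPPE rats 7, 7 and 6. Levels outside Saline 2 ran from 0.104 to 0.435 CPM with a median of 0.200 CPM, and CPPE 2 was again the highest. Saline 2 was at 5.84 times CPPE 2. The exact 95% interval of that ratio, 3.41 to 10.5, reached below the required 4, so the depth did not settle whether this gene belongs to the set.

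**Figure D1:**
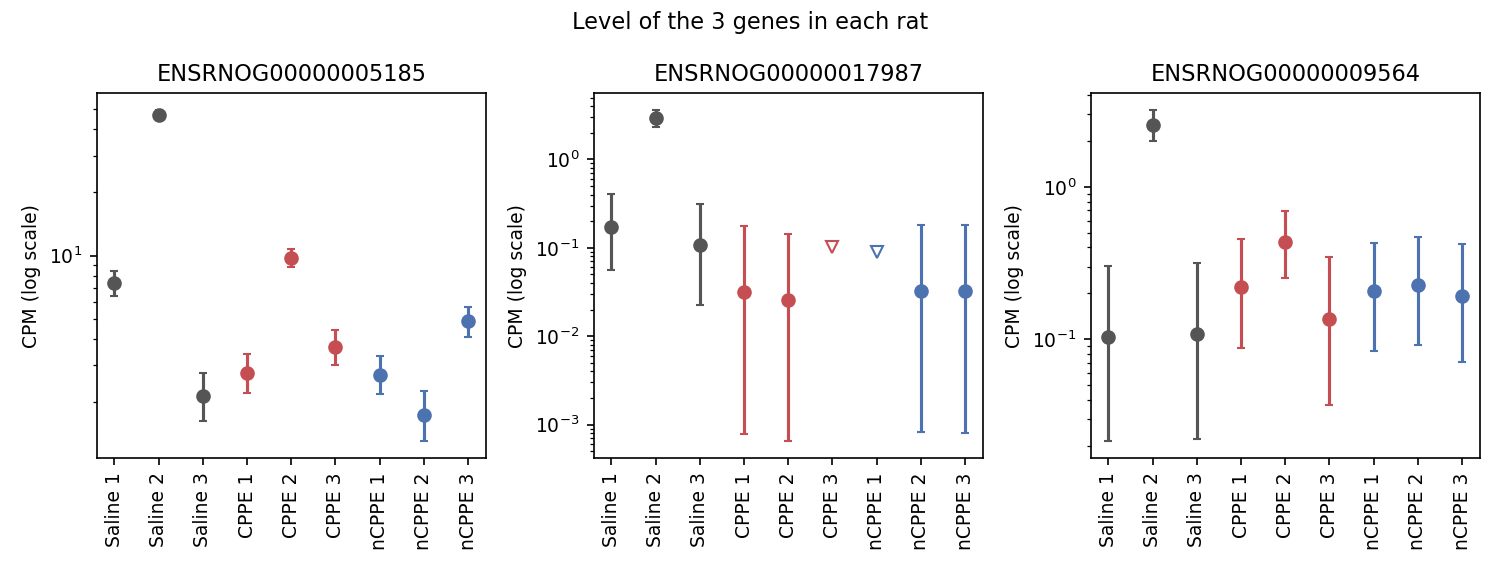
CPM (y axis, log scale) of each of the 3 genes in every rat (x axis), coloured by group (grey Saline, red CPPE, blue nCPPE), with exact 95% Poisson intervals that cover counting error only. Open triangles mark rats with 0 counts, drawn at the level of 3 counts. Saline 2 is above all other rats in each panel, at 46.9, 2.92 and 2.54 CPM.

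The gain was present in each of the 4 technical replicates of Saline 2. ENSRNOG00000005185 had 311 to 364 counts in these (43.1 to 49.4 CPM), and at most 100 counts in any of the 32 technical replicates of the other rats. ENSRNOG00000017987 had 18 to 25 counts against 0 to 2, with 22 of the other 32 at 0. ENSRNOG00000009564 had 12 to 30 counts against 0 to 6. For every gene the lowest technical replicate of Saline 2 exceeded the highest of any other animal. The technical replicates share a rat and do not count as independent samples. The rule selected the genes on the sum of these same counts. The repeat of the gain within Saline 2 is therefore a description and no further support for it.

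Summed over the 3 genes, Saline 2 had 52.4 CPM and the other rats 1.99 (nCPPE 2) to 10.2 (CPPE 2) CPM. ENSRNOG00000005185 made up most of that sum. The set therefore takes a very small share of the library of Saline 2, and its summed level mainly describes a single gene.

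The Saline mean of each gene was dominated by Saline 2. ENSRNOG00000005185 averaged 18.8 ± 24.5 CPM in Saline, while CPPE rats averaged 5.38 ± 3.81 CPM and nCPPE rats 3.09 ± 1.59 CPM (SD, n = 3 for every group). With Saline 2 left out, the Saline rats averaged 4.74 CPM, between both cocaine groups. ENSRNOG00000017987 averaged 1.07 ± 1.60 CPM in Saline rats, and 0.141 CPM over Saline 1 and Saline 3. CPPE rats averaged 0.0190 ± 0.0167 CPM and nCPPE rats 0.0216 ± 0.0187 CPM (SD, n = 3 for every group), and in these low values both Saline rats were above all 6 cocaine rats. ENSRNOG00000009564 averaged 0.917 ± 1.40 CPM in Saline rats and 0.106 CPM without Saline 2. Here the order was the opposite, with CPPE rats at 0.263 ± 0.155 CPM, nCPPE rats at 0.210 ± 0.0181 CPM (SD, n = 3 for every group) and all 6 cocaine rats above Saline 1 and Saline 3. These separations rest on 0 to 17 counts per rat, and the counting intervals of the rats overlap across the groups.

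Whether the genes differed between treatments was tested without Saline 2, in the other 8 rats, which the rule held to the same upper limit whatever their group. For the comparisons with Saline, this leaves out the highest Saline rat of each member by construction, and no cocaine rat. The mean of ENSRNOG00000005185 in Saline was 18.8 CPM with Saline 2 and 4.74 CPM without it. Differences from Saline therefore hold for Saline 1 and Saline 3 only. edgeR's quasi-likelihood test called 0 of 15750 genes (0%) for CPPE against nCPPE, with 556 genes at an unadjusted p below 0.05, and DESeq2 called 1. For CPPE against Saline edgeR called 0 (0%), with 929 genes at an unadjusted p below 0.05, and DESeq2 called 12. For nCPPE against Saline the numbers were 0 (0%), 964 and 6. Of the 3 genes, 1 passed the filter on low counts, ENSRNOG00000005185, and neither tool called it in any comparison.

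ENSRNOG00000005185 was higher in CPPE than in nCPPE rats by 0.81 ± 0.58 on the log2 scale (SE, 95% interval -0.50 to 2.13), with an edgeR adjusted p of 0.971 (range over 13 alternatives 0.739 to 1). The median over all tested genes was -0.0014, and 1.85% of genes had a difference at least as large in either direction. The value rested on CPPE 2, without which it was 0.047. Against Saline 1 and Saline 3 the log2 difference was 0.18 ± 0.64 for CPPE (-1.27 to 1.63, edgeR adjusted p = 0.971, range 0.882 to 0.997 over 12 alternatives). For nCPPE it was -0.63 ± 0.65 (-2.10 to 0.84, edgeR adjusted p = 0.871, range 0.721 to 1 over 13 alternatives). Against Saline, 29.9% of genes for CPPE and 4.51% for nCPPE had a difference at least as large in either direction. Both comparisons use the same pair of Saline rats, and these differed by more from each other than the groups did. The sign of both differences changed with the rats included, and for CPPE also with the replicate number as a block. For nCPPE it was 0.53 without Saline 1. For CPPE it was -0.45 without Saline 3, -0.58 without CPPE 2 and -0.052 with the replicate number as a block. DESeq2 gave no adjusted p for CPPE against Saline. The alternatives include a fit of all 9 rats, which gave the 0.882 for CPPE against Saline. Saline 2 takes part in that fit, so the choice of members fixes its direction against Saline. All 3 intervals include 0 and are wide, so equal levels are not shown.

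With no filter on low counts, the other genes could be fitted as well. ENSRNOG00000017987 then had a log2 difference of -2.61 ± 1.05 (SE) for CPPE and -2.54 ± 1.05 for nCPPE against Saline, with edgeR adjusted p of 0.898 and 0.896. ENSRNOG00000009564 had 1.33 ± 0.66 and 0.95 ± 0.69, with the same adjusted p values. Such fitted values depend on the prior count at these depths, and none passed the test.

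Among the rats other than Saline 2, ENSRNOG00000005185 was itself one of the most variable genes. Its level differed 5.63-fold between the highest and the lowest of the 8, and the SD of its log2 CPM was 0.85, beside a median of 0.13 over the 13768 genes that averaged 1 CPM or more. It ranked 95 by that SD. The rats with most of it after Saline 2 were CPPE 2 and Saline 1, so the variation crossed the groups.

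Genes just below the required ratio help to place the set. The next gene had 14.4 CPM in Saline 2 and 3.97 CPM in the highest other rat, CPPE 2, a ratio of 3.62. The following ratios were 3.15, 3.10, 2.78 and 2.78. By the other criterion, the next gene had 1.82 CPM in Saline 2 at a ratio of 7.89, and so missed the minimum of 2 CPM. No gene at 2 CPM or more in Saline 2 had a ratio between 3.62 and 4.81, the lowest ratio of the set. Few genes lie near the ratio of 4.

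The first gene outside the ratio moved together with ENSRNOG00000005185 across the other 8 rats, which the rule did not require. Its CPM was 2.80 in Saline 1 and 1.23 in Saline 3, 1.72, 3.97 and 1.79 in the CPPE rats, and 1.25, 0.947 and 1.93 in the nCPPE rats. The order of the 8 rats was the same for both genes. Pearson's r of log2(CPM + 0.1) was 0.973 and Spearman's rho 1 (n = 8). Each had an exact permutation p of 5e-05 (two-sided, n = 8), the smallest possible, and 0.00035 after Benjamini-Hochberg adjustment over 7 relations. Both genes were picked by a ratio that used these rats, and the adjustment covers 7 relations only. The p values are therefore given as a description. Of 13767 further genes, 21 had an r of 0.95 or more with ENSRNOG00000005185. Without Saline 1 and CPPE 2, the rats farthest from the median, r was 0.908 over 6 rats. The level of ENSRNOG00000005185 also had an r of 0.480 with log2 total count over the same 8 rats, CPPE 2 being the most deeply sequenced, and the part of depth was not tested.

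**Figure D2:**
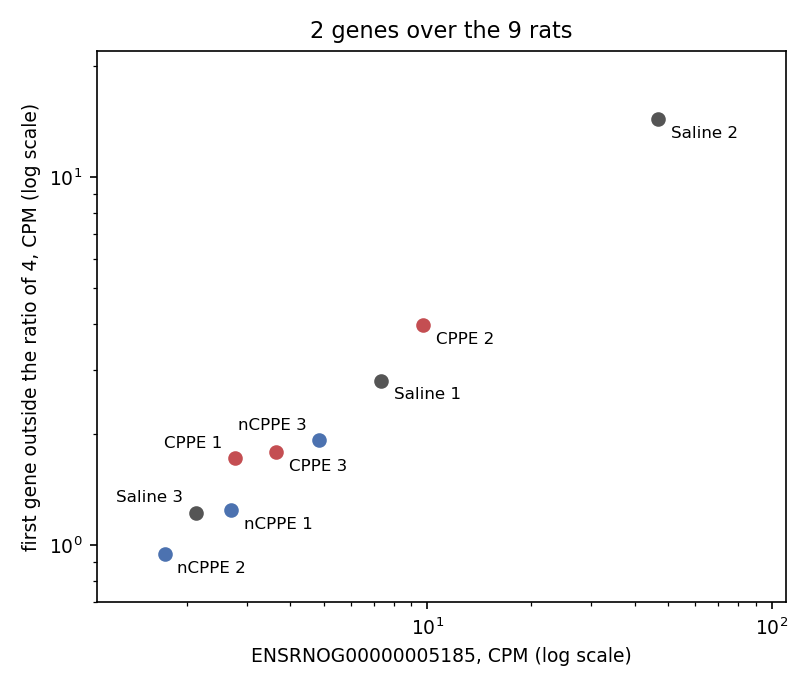
CPM of ENSRNOG00000005185 (x axis) and of the first gene outside the ratio of 4 (y axis) in each of the 9 rats, both on log scales, coloured by group (grey Saline, red CPPE, blue nCPPE). The other 8 rats keep the same order for both genes, and Saline 2 is highest for both, at 46.9 and 14.4 CPM.

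The members did not move together in this way. Over the same 8 rats ENSRNOG00000005185 had an r of 0.198 with ENSRNOG00000017987 (exact permutation p = 0.64, adjusted 0.73, n = 8) and of 0.304 with ENSRNOG00000009564 (exact permutation p = 0.47, adjusted 0.73, n = 8). Spearman's rho was -0.096 and -0.048, with exact permutation p of 0.82 and 0.93 (adjusted 0.93 each). Without Saline 1 and CPPE 2 the r values were -0.382 and -0.066. Both partners had at most 17 counts per rat, which limits what a correlation can show. The other 4 genes outside the ratio had r between 0.149 and 0.517 with ENSRNOG00000005185, with adjusted exact permutation p of 0.58 or more. Their Spearman's rho was 0.43 to 0.67, with adjusted exact permutation p of 0.29 or more, and without Saline 1 and CPPE 2 r ranged from -0.0040 to 0.855.

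More genes followed ENSRNOG00000005185 in the rats other than Saline 2. Of 13767 further genes that averaged 1 CPM or more in these 8 rats, 73 had an r of 0.9 or more with it. Saline 2 was not used for these r values, but ENSRNOG00000005185 itself was chosen for its level there. In Saline 2 these 73 genes lay at a median of 0.72 above the median of the other rats on the log2 scale. Of the 73, 51 (69.9%) were higher. All other genes had a median of -0.054, with 47.7% higher. At an r of 0.95 or more, 20 of 21 genes were higher in Saline 2, with a median of 1.14. The pattern did not extend to weaker relations, since the 247 genes with r between 0.8 and 0.9 had a median of -0.15. Without Saline 1 and CPPE 2, the 73 genes had a median r of 0.856 over the remaining 6 rats, the lowest being 0.584, and 26 of them stayed at 0.9 or more. When genes were instead chosen by their r over these 6 rats, 257 reached 0.9, a larger list that holds 26 of the 73, and their median in Saline 2 was 0.00080. These are correlations across 8 animals and counts across genes, which are not independent replicates, and they are given as a description.

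**Figure D3:**
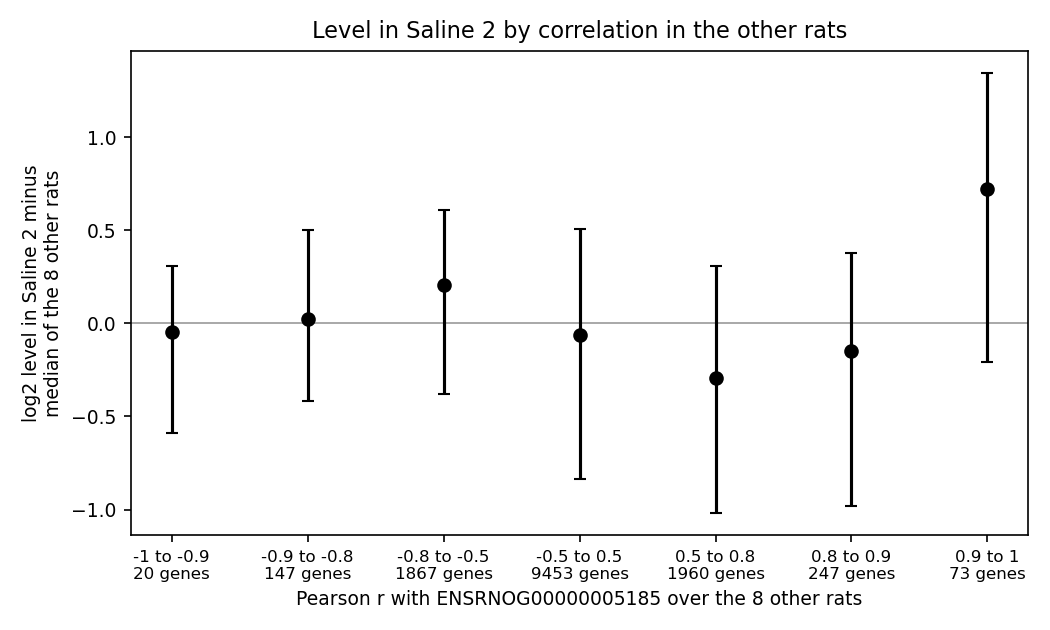
Level in Saline 2 minus the median of the other 8 rats (y axis, log2 CPM) for genes grouped by their Pearson r with ENSRNOG00000005185 over those 8 rats (x axis, with the number of genes). Points are medians and bars run from the lower to the upper quartile. The 73 genes with r of 0.9 or more have a median of 0.72, and the other groups lie between -0.29 and 0.21.

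Genes gained in Saline 2 were far fewer than genes lost in it. The mirror rule, a level in Saline 2 at least 4 times below the lowest of the other rats where that lowest was at least 2 CPM, was met by 543 of 12271 genes (4.43%). At a factor of 2, 204 of 12323 genes were gained (1.66%) and 1918 of 12271 lost (15.6%). Saline 2 was nevertheless above every other rat, by any margin, for 5111 genes (41.5%). In the other 8 rats this share ran from 2.64% (nCPPE 1) to 14.0% (CPPE 2), each among its own genes at 2 CPM or more. Gains in Saline 2 were thus widespread and mostly small. Among genes at 2 CPM or more in Saline 2, 3 reached 4 times the level of every other animal. None of the other 8 rats lost a gene by the mirror rule, with Saline 2 kept among the rats each was compared with.

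The same rule applied to each of the other rats in turn found 0 genes in 6 of them, 1 in CPPE 3 and 2 in nCPPE 3. The gene of CPPE 3 had 5.83 CPM there and a ratio of 4.04. Those of nCPPE 3 had 7.19 and 8.67 CPM and ratios of 6.16 and 12.0. At a factor of 2 the counts were 204 in Saline 2, 31 in nCPPE 3 and at most 6 elsewhere. At a factor of 3 they were 6 in Saline 2 and 9 in nCPPE 3. By number of strongly gained genes Saline 2 therefore did not stand apart from nCPPE 3, in contrast to its gains of about 2-fold. Saline 2 stayed among the rats that each other animal was compared with, which limited the genes these could gain. These counts were not tested.

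**Figure D4:**
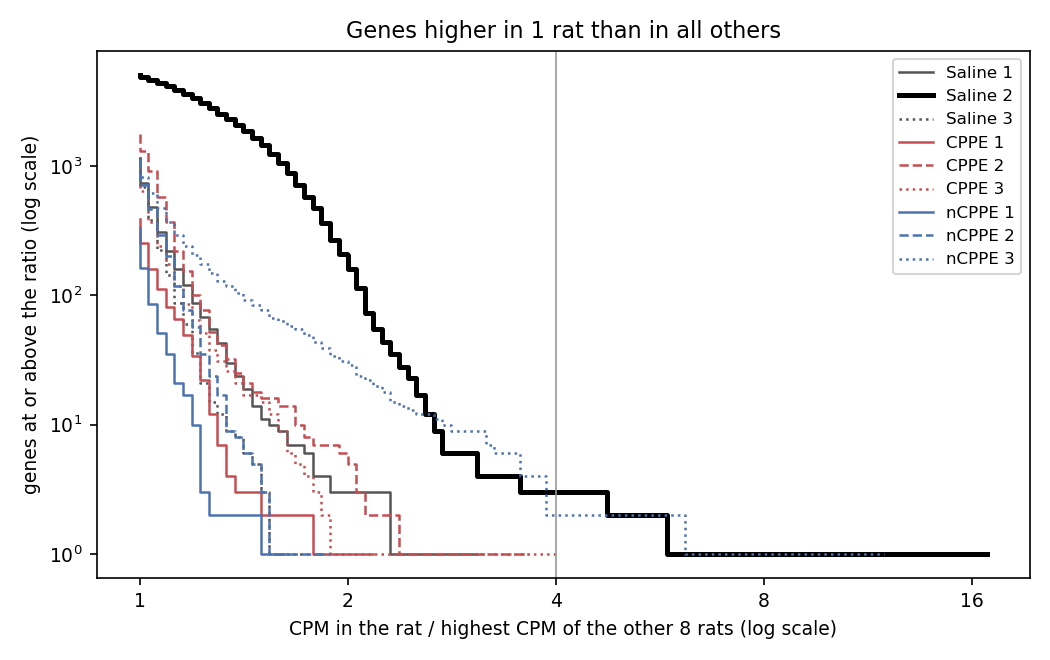
Number of genes (y axis, log scale) whose CPM in a rat was at least the given multiple of the highest CPM in all other rats (x axis, log scale), for genes at 2 CPM or more in that rat; the grey line marks the ratio of 4. Saline 2 (thick black line) has most genes up to a ratio of 2, with 204 there, and 3 at a ratio of 4, beside 2 for nCPPE 3 and 1 for CPPE 3.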

How the data were processed

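Polyadenylated RNA was sequenced with a strand-specific kit, per the labels' protocols. The authors deposited raw read counts per Ensembl identifier, without normalization, in 36 files, 4 technical replicates for each of 9 rats. The submitters' processing notes name bcl2fastq 2.18.0.12, STAR and HTSeq 0.5.3. Genome build, annotation and strand setting: not given in the sources used here. Therefore counts of overlapping or near-identical genes are uncertain.

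Technical replicates were compared by chi-square over genes with at least 40 counts (statistic per degree of freedom 1.00 to 1.02 in every rat) and then summed, so each rat counted once. CPM used the rat's total. Ratio intervals are exact binomial intervals at 95%. Tests used edgeR 4.0.16 in R 4.3.3 (filterByExpr, TMM scaling, glmQLFit, glmQLFTest) on 8 rats without Saline 2, with group as the sole factor and Benjamini-Hochberg adjustment over all genes tested. A gene was called at an adjusted p below 0.05. Whether rats of a group came from separate litters or days is not stated. DESeq2 1.42.0, other scalings, no filter, all 9 rats, a replicate block and leaving out each rat were alternatives. The edgeR procedure and the rule were tested on simulated data. The other steps used Python 3.11.15 with scipy 1.17.1.

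The members and lists were chosen with earlier results of these data known. The naming rule took the 15 members highest in CPM, the 15 highest in ratio, members on a marker list, the 5 genes either side of the ratio of 4 and members past the test. It allowed 2 identifiers per direction where no symbols exist. All 3 members are named nevertheless, since they are the subject, and other genes are given by rank. Marker lists could not be applied. Correlations, the mirror rule and the rule in other rats were added after the data were seen.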

Additional observations from a re-analysis of the deposited data

How the results depend on the processing

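The set of 3 genes kept its size under TMM-scaled CPM and under DESeq2 size factors. It held 4 genes at a minimum of 1 CPM, 1 at a minimum of 5 CPM, 204 at a ratio of 2 and 1 at a ratio of 8. Technical replicates a to d taken alone gave 3, 5, 4 and 5 genes. All 3 members were among those of b, c and d, and 2 among those of a, where ENSRNOG00000009564 had 1.62 CPM in Saline 2 and so missed the minimum. Leaving out any of the other rats gave 3 to 6 genes, with 6 without CPPE 2, and all 3 members were in each of these sets. No member was called in any of the 42 combinations of comparison and setting. DESeq2 gave no adjusted p for ENSRNOG00000005185 in CPPE against Saline. The number of genes called was 0 in every edgeR fit, and with DESeq2 it was 1 between the cocaine groups, 12 between CPPE and Saline and 6 between nCPPE and Saline.

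ENSRNOG00000005185 was the sole tested member in most fits, so the median over members is its value. With all 9 rats its log2 difference was -1.86 for CPPE and -2.66 for nCPPE against Saline, a direction that the choice of members fixes. Leaving out each rat in turn gave 0.047 to 1.28 between the cocaine groups, and against Saline -0.58 to 1.34 for CPPE and -1.26 to 0.53 for nCPPE. The medians ran over the same ranges, except -0.58 to 1.32 for CPPE and -1.10 to 0.73 for nCPPE against Saline, since ENSRNOG00000009564 also passed the filter without Saline 1 or Saline 3. Fits without Saline 1 or Saline 3 leave 1 Saline rat, assumed to vary like the others. With the replicate number as a block (replicate block) the values were 0.63, -0.052 and -0.68, and no call changed. Same-numbered CPPE and nCPPE rats had correlations of 0.057, -0.433 and -0.113 of their deviations from the group means. Different-numbered CPPE and nCPPE rats had -0.314 to 0.336. Deviations within a group of 3 depend on each other, so these values cannot decide whether the numbers pair the animals. The median of Saline 2 for genes correlated with ENSRNOG00000005185 was -0.052 at an r of at least 0.8, 0.00080 over 6 rats and 0.47 at an average of 5 CPM or more. Depth limits ENSRNOG00000017987 and ENSRNOG00000009564, which had 0 to 17 counts outside Saline 2.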
